A study of Mus musculus with 18 samples.

Results

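The clustered protocadherins are the genes of the Pcdha, Pcdhb and Pcdhg clusters of mouse chromosome 18. Members were all transcripts of the deposited expression table whose RefSeq symbol starts with Pcdha, Pcdhb or Pcdhg followed by a number, or by a letter and a number. The rule found 57 of 29851 transcripts, of which 14 were Pcdha, 22 Pcdhb and 21 Pcdhg. Each member had 1 transcript in the table. The symbol rule used no measured value. The family itself, and the gene lists set beside it below, were chosen with earlier results of these data known.

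Protocadherins are cadherin-like adhesion proteins that bind the same isoform on a neighbouring cell. In the nervous system, each neuron is known to use a few variable isoforms picked by promoter choice, which gives neurites of the same cell a shared identity and lets them avoid each other. A variable Pcdha or Pcdhg transcript joins its own first exon to constant exons that all isoforms of its cluster share, whereas each Pcdhb gene is a single coding exon with no constant part. CTCF and cohesin loop the chosen promoters to distal enhancers, and DNA methylation and H3K9 methylation keep the others silent. C-type isoforms, at the end of the Pcdha and Pcdhg clusters, are known to be used more broadly within neural tissue.

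The study measured mRNA in 6 RNA-seq libraries, 1 per group, all from mouse ES cell lines of 129/Ola background. E36 ES cells labelled wild type or Eed knock-out were sampled undifferentiated, in 15% serum plus leukemia inhibitory factor (LIF), and after differentiation into embryoid bodies (EBs). EBs formed over 48 hours in hanging drops without LIF, received retinoic acid (0.5 µM, the all-trans form) from day 2 to day 5, and were cultured to day 9. E14 ES cells carried a lentiviral scrambled control hairpin (shCtrl) or a hairpin against Setd2 (shSetd2), were selected with puromycin and were harvested on day 4 after selection. Eed is a core subunit of Polycomb repressive complex 2, which methylates lysine 27 of histone H3, and Setd2 trimethylates lysine 36. The Eed allele and the number of clones or cultures behind a library are not stated in the labels.

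Levels are in FPKM, the fragments per kilobase of a transcript divided by library size. Differences are of log2(FPKM + 1), which understates the change of low genes. A gene is called higher or lower by a size rule, a difference of at least 1 on that scale. The rule covers genes that reach an FPKM of 1 in any of the 4 E36 libraries, or in either library of the pair for comparisons that involve E14 cells. With 1 library per group no test is possible, and no difference below has a replicate check. From short single-locus receptor genes the libraries were estimated to hold between about 16.3 and 23.8 M fragments, so that 1 fragment on a transcript of 3 kb was worth 0.0140 to 0.0205 FPKM. Eed mRNA did not check the labels: it had 72.3 FPKM in ES wild type and 77.8 in the ES library labelled Eed KO, then 25.04 in EB wild type and 21.8 in the EB library labelled Eed KO. Setd2 had 16.8 in shCtrl and 2.59 in shSetd2. Pou5f1, which marks pluripotent cells, had 493 to 715 FPKM in the ES-cell libraries, 20.8 in EB wild type and 1.21 in the EB library labelled Eed KO. An exact 0 is an estimate of the authors' software and is written as listed at 0. All 57 members carry the same locus in the table, mm9 chromosome 18 from 37089939 to 38001526, so no member has coordinates of its own, and names are given in their RefSeq order along the region.

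In ES cells the Pcdhb genes were close to the detection limit, a subset of Pcdhg isoforms was measurable and Pcdha was nearly absent. In EBs all Pcdhb genes but Pcdhb1 were measurable, the Pcdhg sum was higher than in ES cells and the alternate Pcdha isoforms, Pcdha1 to Pcdha12, stayed below 1 FPKM. The number of members with an FPKM of at least 1 was 3 in ES wild type, 4 in the ES library labelled Eed KO, 34 in EB wild type, 25 in the EB library labelled Eed KO, and 2 in each E14 library. Members listed at 0 numbered 7 in each E36 ES library, 0 in each EB library, 6 in shCtrl and 10 in shSetd2.

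**Figure D1:**
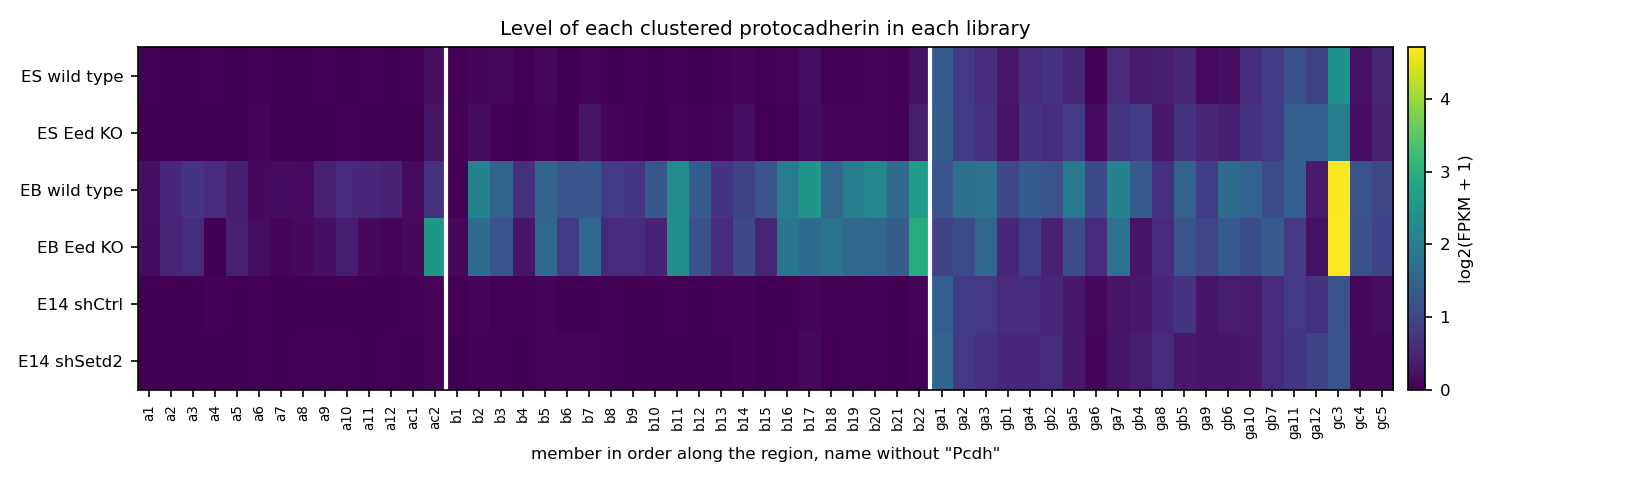
Level of each member in each library as log2(FPKM + 1), on a colour scale, with members along the horizontal axis in their order along the region and white lines between the Pcdha, Pcdhb and Pcdhg clusters. Pcdhb is dark in the ES-cell libraries and lit in both EB libraries, Pcdhgc3 is the brightest member in EBs, and Pcdhac2 is bright in the EB library labelled Eed KO alone.

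The summed FPKM of the 22 Pcdhb genes was 0.883 in ES wild type, 1.37 in the ES library labelled Eed KO, 44.6 in EB wild type, 36.3 in the EB library labelled Eed KO, 0.473 in shCtrl and 0.469 in shSetd2. Pcdhg summed to 14.7, 16.7, 55.96, 45.4, 10.6 and 10.4 FPKM in the same order of libraries, and Pcdha to 0.281, 0.346, 4.72, 6.95, 0.120 and 0.193. The makeup of the family thus differed between states. Pcdhb held 5.57% of the summed member FPKM in ES wild type and 42.3% in EB wild type, while Pcdhg held 92.7% and 53.2%. Shares of the Pcdha and Pcdhg isoforms depend on how the authors' software divided reads from shared exons, which does not affect Pcdhb in that way. Pcdhb genes have close paralogs, so reads could be split between them.

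**Figure D2:**
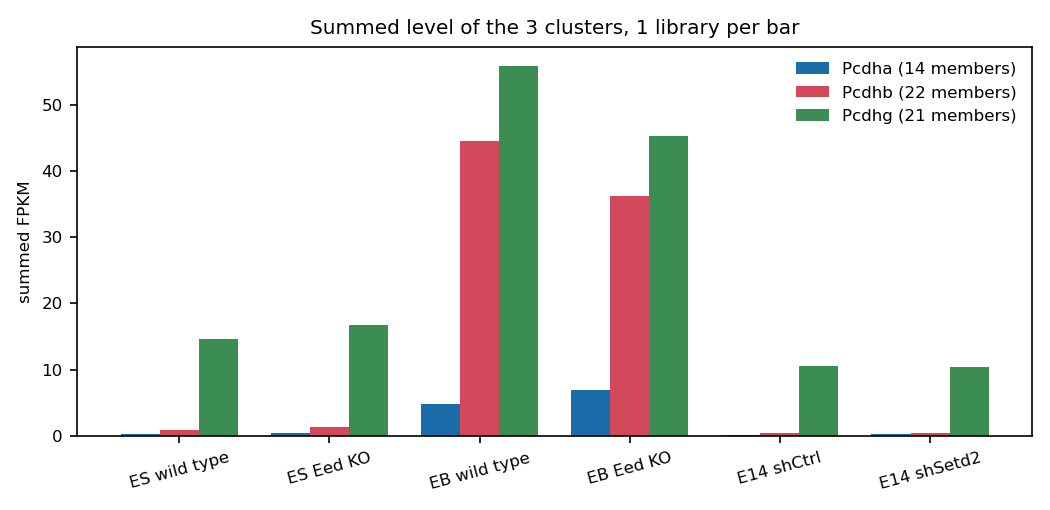
Summed FPKM of the members of each cluster, 1 bar per cluster and library, with no error bars because each group has 1 library. Pcdhb sums to 44.6 in EB wild type and 36.3 in the EB library labelled Eed KO, against at most 1.37 in the ES-cell libraries.

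Of the 57 members, 37 passed the filter on low values: 17 of 22 Pcdhb, 19 of 21 Pcdhg and 1 of 14 Pcdha, Pcdhac2. The 20 that did not pass were Pcdha1 to Pcdha12, Pcdhac1, Pcdhb1, Pcdhb4, Pcdhb8, Pcdhb9, Pcdhb13, Pcdhga8 and Pcdhga9. Among those that passed, 33 did so only through an EB library, which favours a higher EB value in them. Counts between ES cells and EBs over passing members are therefore given as a description, beside signs over all 57.

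In differentiation of wild-type cells the summed FPKM of all 57 members was 15.8 in ES wild type and 105 in EB wild type. Summed Pcdhb FPKM was 50.5 times higher in EB wild type than in ES wild type, and all 22 Pcdhb genes had a higher value. Pcdhg was 3.81 times and Pcdha 16.8 times higher, the latter from a sum in ES cells that was near 0. Over all 57 members, 55 were above 0 and 2 below, Pcdhga1 and Pcdhga12, with a median difference of 0.81. Of all features passing the filter 48.6% were below 0. By the size rule 25 of the 37 passing members were higher and 0 lower, where 19.3% of all 14772 features passing the filter were higher and 14.2% lower, with a median of 0.02. The 25 were 16 Pcdhb genes, Pcdhb2, 3, 5, 6, 7, 10, 11, 12 and 15 to 22, and 9 Pcdhg isoforms, Pcdhga3, 5, 6 and 7, Pcdhgb4, 5 and 6, Pcdhgc3 and Pcdhgc4. Most members lie between 1 and 10 FPKM at their highest (36 of 37), and of the 6327 features in that band 21.4% were higher and 10.1% lower.

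Among the Pcdhb genes, Pcdhb22, the last in the cluster, had the highest level, with 0.173 FPKM in ES wild type, 0.288 in the ES library labelled Eed KO, 5.25 in EB wild type, 6.57 in the EB library labelled Eed KO, 0.0458 in shCtrl and 0.0272 in shSetd2. Both EB libraries were above all 4 ES-cell libraries. In EB wild type this was about 382.2 fragments against 10.5 in ES wild type. Pcdhb17 had 0.122, 0.121, 4.48, 2.06, 0.0645 and 0.0837 FPKM in the same order.

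Pcdhb11 had 0.015, 0.0435, 3.83, 4.03, 0.0186 and 0.00184 FPKM, and its level in either EB library was close to the other. Its ES wild-type value is worth about 1.1 fragments on its length, so no fold is given. Pcdhb20 had 0.0399, 0.0412, 3.51, 1.94, 0.0344 and 0.0141 FPKM, in the same order of libraries. Both EB values again lay above the ES-cell values.

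Pcdhb2 had 0.0523, 0.120, 3.28, 2.13, 0.0530 and 0.0287 FPKM. Pcdhb19 had 0.0246, 0.0470, 2.92, 1.98, 0.0163 and 0.0191 FPKM. These 6 genes had the highest maxima of the cluster. Pcdhb1, at the other end, stayed low in every library, from 0 in shSetd2 to 0.0864 in the EB library labelled Eed KO.

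The last stretch of the cluster had the highest median level in EBs, in a grouping made after the values were seen. In EB wild type the last 7 genes, Pcdhb16 to Pcdhb22, had a median of 2.92 FPKM (1.96 to 5.25), against 1.39 (0.565 to 3.28) for the first 7 after Pcdhb1 and 1.37 (0.661 to 3.83) for the 7 between them. In the EB library labelled Eed KO the medians were 2.06, 1.34 and 0.535. The stretches overlap in both libraries, since Pcdhb2 and Pcdhb11 of the earlier stretches reach the levels of the last 7. In the EB library labelled Eed KO so do Pcdhb5 (2.00 FPKM) and Pcdhb7 (1.95), where the last 7 start at 1.63.

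All 22 Pcdhb genes had both EB libraries above all 4 ES-cell libraries, as had 13 of 14 Pcdha and 14 of 21 Pcdhg members. Of all 23421 symbols, with no filter, 24.3% did. Among features that passed the filter 31.6% had both EB libraries above all ES-cell libraries and 27.6% had both below. The members that did not were Pcdha4, Pcdhga1, Pcdhga8, Pcdhga11, Pcdhga12, Pcdhgb1, Pcdhgb2 and Pcdhgb4. The EB libraries hold other cells than the ES libraries: summed neuron marker FPKM (18 genes) was 249 in ES wild type and 672 in EB wild type, and mesenchyme and smooth muscle markers (14 genes) summed to 390.3 and 1985. In these bulk samples fewer cells of a type and less RNA per cell cannot be told apart, and the part of cell makeup in the difference was not tested.

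Pcdhg isoforms were detected in ES cells, at levels that overlapped those in EBs for several members. Pcdhgc3, a C-type isoform and the highest of the cluster in the 4 E36 libraries, had 4.37 FPKM in ES wild type, 2.998 in the ES library labelled Eed KO, 24.6 in EB wild type, 25.2 in the EB library labelled Eed KO, 1.32 in shCtrl and 1.35 in shSetd2. In both E14 libraries Pcdhga1 was higher. Pcdhgc3 held 29.8% of summed Pcdhg FPKM in ES wild type and 44.0% in EB wild type. Pcdhga7 had 0.489, 0.675, 3.24, 2.42, 0.192 and 0.200 FPKM, and Pcdhga5 had 0.396, 0.773, 2.76, 1.16, 0.253 and 0.227, in the same order.

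Pcdhga3 had 0.513, 0.596, 2.43, 1.92, 0.719 and 0.569 FPKM, Pcdhga2 had 0.752, 0.802, 2.34, 1.13, 0.765 and 0.746, and Pcdhgb6 had 0.139, 0.317, 2.18, 1.51, 0.290 and 0.216. For these isoforms both EB libraries were above all ES-cell libraries. Another pair of A isoforms ran against this pattern and were picked out after their values were seen. Pcdhga1, the first of the cluster, had 1.57, 1.63, 1.36, 0.966, 1.65 and 1.89 FPKM, and Pcdhga12, the last A isoform, had 0.879, 1.65, 0.26, 0.160, 0.606 and 0.957. Pcdhga12 was lower in both EB libraries than in all ES-cell libraries, as was Pcdhga1.

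The other C-type isoforms were lower than Pcdhgc3 in every library. Pcdhgc4 had 0.153 FPKM in ES wild type, 0.151 in the ES library labelled Eed KO, 1.33 in EB wild type, 1.26 in the EB library labelled Eed KO, 0.0671 in shCtrl and 0.0683 in shSetd2. Pcdhgc5 had 0.406, 0.346, 1.04, 0.926, 0.129 and 0.0714 FPKM, and Pcdhac1 had 0.0278, 0, 0.0981, 0.0827, 0.0146 and 0. Pcdhac2 is described with the Eed comparison in EBs.

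Eed loss in ES cells, as far as the labels give it, asks whether Polycomb methylation of lysine 27 bears on the clusters while they are mostly silent. No member passed the size rule, with 0 higher and 0 lower of 37, where 2.82% of all features were higher and 3.01% lower. On this scale a member under 1 FPKM in ES wild type could not be called lower, and 3 members were above that. Likewise a member under 1 FPKM in the ES library labelled Eed KO could not be called higher, and 4 were above that. Of the 37, 33 passed the filter only through an EB library. Whether Eed loss bears on the members under 1 FPKM was not tested by these counts. In the band from 1 to 10 FPKM at their highest these shares were 2.8% and 2.29%. With a pseudocount of 0.1, 1 member was higher, Pcdhgb4, with 0.262 FPKM in ES wild type and 0.790 in the ES library labelled Eed KO. Summed Pcdhb FPKM was 0.883 in ES wild type and 1.37 in the ES library labelled Eed KO, about 60.3 and 106.7 fragments over 22 genes, and the ratio of 1.55 was 1.62 to 1.71 under the 3 rescalings. Over all 57 members 36 were above 0 and 20 below, with a median of 0.02. Of all features passing the filter 53.6% were below 0, with a median of -0.03. The 12 gamma A isoforms were above 0 in 11 cases, summing to 7.28 and 9.93 FPKM. They share constant exons, so their signs are not separate observations. Pcdhgc3 went the other way, from 4.37 to 2.998 FPKM. In E14 shCtrl cells, which carry no Eed mutation by their label, Pcdhgc3 had 1.32, a difference of -1.21 from ES wild type, and it was the 1 of 3 passing members called between these control lines (background 3.14% higher and 5.65% lower). That difference is wider than the -0.42 of Pcdhgc3 in the Eed pair, and both comparisons share the ES wild-type library.

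In EBs the summed FPKM of all members in the EB library labelled Eed KO was 0.842 of that in EB wild type. Summed Pcdhb FPKM was 0.815 of the wild-type value, and 0.885 to 0.921 of it under the rescalings. Summed Pcdhg was 0.811 of it, but 0.642 without Pcdhgc3, and the alternate Pcdha isoforms were at 0.556. By the size rule 1 member was higher, Pcdhac2, and 1 lower, Pcdhgb4, of 37, against 7.68% of all features higher and 9.82% lower, and 8.55% and 9.06% in the band from 1 to 10 FPKM. The median of all 14772 features was -0.14, and a median-of-ratios rescaling moved it to -0.01. The median over all 57 members was -0.22, with 44 below 0 and 13 above. As deposited, 60.3% of all features passing the filter were below 0. With the median-of-ratios rescaling 39 members were below 0 and 18 above. The share of all features below 0 was not computed for that rescaling. The count of lower members depends on the pseudocount: it was 8 with 0.1 and 4 with 0.5, where 14.4% and 11.7% of all features were lower. The 8 were Pcdhb10, Pcdhb15, Pcdhb17, Pcdhga5, Pcdhga11, Pcdhgb1, Pcdhgb2 and Pcdhgb4.

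**Figure D3:**
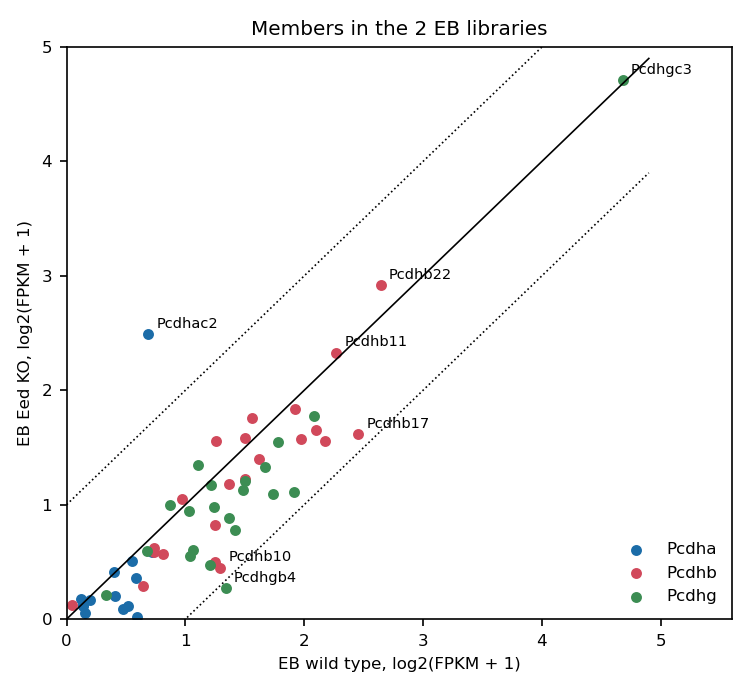
Each member's log2(FPKM + 1) in EB wild type (horizontal axis) and in the EB library labelled Eed KO (vertical axis), coloured by cluster, with the line of equal levels and dotted lines at a difference of 1. Pcdhac2 lies above the upper dotted line and Pcdhgb4 just under the lower one, while Pcdhgc3, Pcdhb11 and Pcdhb22 lie near the line of equal levels.

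Pcdhac2, the second C-type isoform of the Pcdha cluster, had 0.147 FPKM in ES wild type, 0.222 in the ES library labelled Eed KO, 0.606 in EB wild type, 4.63 in the EB library labelled Eed KO, 0.0418 in shCtrl and 0.0503 in shSetd2. The EB library labelled Eed KO stood above the other 5. Its value was 7.64 times that of EB wild type, a difference of 1.81. The 12 alternate Pcdha isoforms went the other way in sum, from 4.02 FPKM in EB wild type to 2.23 in the EB library labelled Eed KO, with 10 of 12 below 0. Pcdhac2 therefore made up 12.8% of summed Pcdha FPKM in the former and 66.6% in the latter. Pcdha3 was the highest alternate isoform in EB wild type, with 0.641 FPKM there and 0.506 in the EB library labelled Eed KO. Pcdha4 had 0.507 and 0.0123, and Pcdha12 had 0.392 and 0.0636; both were picked out after their values were seen and are under the filter.

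Pcdhgb4, a gamma B isoform, had 0.262 FPKM in ES wild type, 0.790 in the ES library labelled Eed KO, 1.53 in EB wild type, 0.206 in the EB library labelled Eed KO, 0.256 in shCtrl and 0.275 in shSetd2. EB wild type stood above the rest, and its value was 7.42 times that of the EB library labelled Eed KO. The gamma A isoforms summed to 19.9 and 12.5 FPKM in these 2 EB libraries, and the gamma B isoforms to 9.05 and 5.42. Of the 12 gamma A isoforms 11 were below 0, and of the 6 gamma B isoforms 5 were, the exceptions being Pcdhga9 and Pcdhgb7. Pcdhgc3 had 24.6 and 25.2, so Pcdhg without it summed to 31.4 and 20.1.

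Within Pcdhb the genes differed from each other in this comparison. The lowest differences were those of Pcdhb10, with 1.45 FPKM in EB wild type and 0.366 in the EB library labelled Eed KO (-0.84), Pcdhb17 with 4.48 and 2.06 (-0.84), and Pcdhb15 with 1.37 and 0.416 (-0.75). Pcdhb7 had 1.39 and 1.95 and Pcdhb22 had 5.25 and 6.57, the highest differences, at 0.30 and 0.28. None passed the size rule. Of the 22 genes 15 were below 0 and 7 above. The order of levels was largely shared by the 2 libraries: across the 22 genes Spearman's rho was 0.87, against 0.69 across the 21 Pcdhg and 0.40 across the 14 Pcdha members. These correlations are over genes that share a locus and libraries that share their annotation, and genes are not independent replicates.

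Known promoter features give another grouping, made after the values were seen. Pcdhac2, Pcdhb1, Pcdhgc4 and Pcdhgc5 are known to lack the conserved CTCF-bound promoter element that the other members carry. In the Eed comparison in EBs their differences were 1.81, 0.07, -0.04 and -0.08. Pcdhac2 was called higher, while Pcdhgc4 and Pcdhgc5 were within 0.1 of no difference. Pcdhb1 is under the filter, with 0.0348 FPKM in EB wild type and 0.0864 in the EB library labelled Eed KO. Its difference was bound to be near 0 at that level.

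Markers of neurons differed far more in summed FPKM between the EB libraries than the protocadherins did. Of 18 neuron markers 16 were lower and 1 higher in the EB library labelled Eed KO, with a median of -3.80 and a summed FPKM of 672 in EB wild type and 31.3 in that library. Tubb3, the neuronal beta-tubulin, had 290.2 and 1.23 FPKM, and Fabp7, a radial glia lipid carrier, had 162 and was listed at 0. The neuron markers Map2 and Elavl4 had 41.8 and 16.6 FPKM in EB wild type and were listed at 0 in the EB library labelled Eed KO. Of 11 neural progenitor markers passing the filter 10 were lower and 0 higher, and the list of 12 summed to 367 and 37.9 FPKM. Summed Pcdhb over the same pair was 44.6 and 36.3 FPKM. How far its level depends on the neural cells present was not tested.

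Markers of several other lineages had higher sums in that library. Of 14 mesenchyme and smooth muscle markers 4 were higher and 1 lower, with a summed FPKM of 1985 and 2508. Of 8 epithelial markers 7 were higher and 0 lower, with sums of 142 and 397. Of 4 endoderm markers passing the filter 3 were higher and 0 lower. Which cells of the EBs carried the protocadherin RNA was not tested.

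**Figure D4:**
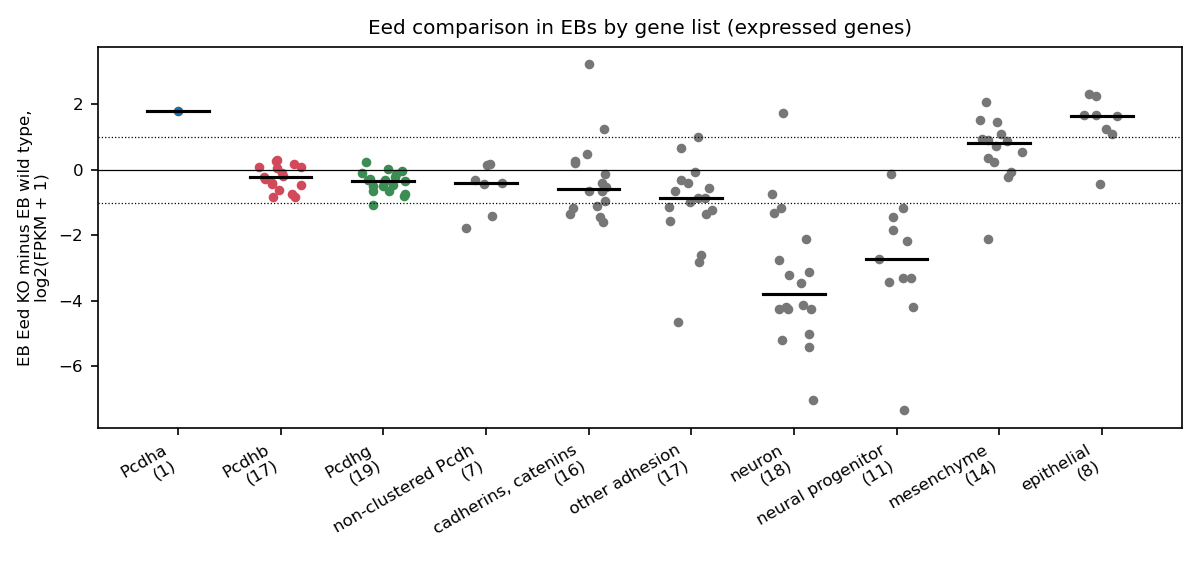
Difference of log2(FPKM + 1), the EB library labelled Eed KO minus EB wild type, for each gene passing the filter (points) by list, with the list's median (bar), the number of genes in brackets and dotted lines at a difference of 1 either way. Pcdhb and Pcdhg have medians of -0.23 and -0.34, while neuron markers have a median of -3.80 and neural progenitor markers one of -2.72. The lists differ in level, and on this scale a gene of low FPKM cannot fall far. The median Pcdhb gene had 1.71 FPKM in EB wild type.

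Other adhesion genes gave a mixed picture in EBs. Of 17 other homophilic and synaptic adhesion genes passing the filter 7 were lower and 1 higher (median -0.85): Cntn2, an axonal contactin, had 48.8 and 0.974 FPKM, Celsr3, an atypical cadherin of axon guidance, had 7.34 and 0.194, and Nrcam had 12.7 and 1.26. Among 7 non-clustered protocadherins passing the filter 2 were lower and 0 higher (median -0.40), Pcdh8 with 3.73 and 0.393 and Pcdh9 with 2.84 and 0.437, while Pcdh18 had 22.6 and 25.7. Of 16 classical cadherin and catenin genes 5 were lower and 2 higher (median -0.59), with P-cadherin, Cdh3, at 6.29 and 67.1 and the retinal and renal cadherins Cdh4 and Cdh6 at 3.13 and 0.518, and 8.22 and 2.09. In wild-type differentiation 13 of the 17 adhesion genes, 6 of the 7 non-clustered protocadherins and 7 of the 16 cadherin and catenin genes were higher, with 0, 1 and 4 lower.

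The genes known to regulate the clusters were mostly within the size rule in the Eed comparison in EBs. Of 21 chromatin and looping regulators 1 was higher and 0 lower, with a median of -0.12. Setdb1, an H3K9 methyltransferase known to act at the clusters, was the one called, with 12.5 FPKM in EB wild type and 35.9 in the EB library labelled Eed KO. Ctcf had 30.3 and 22.8, the cohesin subunit Rad21 had 84.0 and 77.4, and Uhrf1, which maintains DNA methylation, had 16.5 and 7.92. In wild-type differentiation 4 of the 21 were lower and 1 higher. Dnmt3b, the de novo DNA methyltransferase known to methylate variable promoters, had 72.5 FPKM in ES wild type and 2.94 in EB wild type, and Trim28, the corepressor that recruits Setdb1, had 697 and 139.9.

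Intracellular partners, among them the Wave complex subunit Cyfip2 (29.8 and 9.12 FPKM in EB wild type and the EB library labelled Eed KO) and the receptor Ret (0.375 and 2.70), had 1 of 11 higher and 1 lower. The 16 passing genes that flank the clusters had 0 higher and 1 lower, Rell2, with 4.94 and 1.87 FPKM and a list median of -0.14. Across the 358 other chromosome 18 genes passing the filter the median was -0.10. In wild-type differentiation the flanking genes had a median of -0.01, with 1 higher and 4 lower. The higher one was Rell2, with 1.54 FPKM in ES wild type and 4.94 in EB wild type. Whether the clusters and their neighbours changed together was not tested.

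Differentiation of the cells labelled Eed KO gave the same direction for Pcdhb as in wild type. All 22 Pcdhb genes were higher in the EB library labelled Eed KO than in the ES library labelled Eed KO, and the sum was 26.5 times higher, against 50.5 in wild type. Summed Pcdhg was 2.72 times higher, and 1.47 times without Pcdhgc3, against 3.81 and 3.04 in wild type. Summed Pcdha was 20.1 times higher, against 16.8 in wild type, with Pcdhac2 holding 66.6% of it in the EB library labelled Eed KO. By the size rule 16 of 37 passing members were higher and 1 lower, where 19.7% of all features were higher and 18.5% lower. The 16 were 13 Pcdhb genes, Pcdhac2, Pcdhga7 and Pcdhgc3, and the lower one was Pcdhga12. Over all 57 members 52 were above 0 and 5 below, where 51.0% of all features passing the filter were below 0. Whether the 2 genotypes differed in this was not tested, since each has 1 library per state.

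In the Setd2 comparison the family was at the low level of the other ES-cell libraries. Of all members 2, Pcdhga1 and Pcdhgc3, passed the filter in the E14 libraries, and 0 were called either way, where 0.706% of all features were higher and 1.70% lower. Pcdhga1 had 1.65 FPKM in shCtrl and 1.89 in shSetd2, and Pcdhgc3 had 1.32 and 1.35. Summed Pcdhb was 0.473 and 0.469, about 38.0 and 29.4 fragments over 22 genes, a ratio of 0.992 that became 1.11 to 1.13 under the rescalings, and the median of all features was shifted by -0.13. The widest difference among all 57 members was that of Pcdhgb5, with 0.626 and 0.254 FPKM (-0.38). The order of Pcdhg levels was shared by the libraries, with a Spearman rho of 0.92 across 21 members. A difference in Pcdhb of a few fragments per gene was not detectable at this depth.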

How the data were processed

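The authors aligned RNA-seq reads with TopHat and quantified transcripts with Cuffdiff on mm9, per the submitters' processing notes, and deposited FPKM values per RefSeq transcript. Their versions and options, the annotation used and how libraries were scaled are not given in the sources. Libraries were made with the TruSeq RNA version 2 kit, per the labels' protocols, a poly(A) kit that does not mark strand, so antisense reads cannot be told apart. The series' 12 ChIP-seq samples were not used here.

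Accessions were matched to symbols through a RefSeq table of GRCm38.p6, used for names, order along the region and single-exon Pcdhb lengths only. It matched 29296 of 29851 rows. Per symbol the row with the highest mean was used, giving 23421. Differences are of log2(FPKM + 1), with pandas 2.3.3. The worth of 1 fragment came from 1140 receptor genes spanning 850 to 1100 bases, as the most common low value. The 12 gene lists, and the members, were chosen with earlier results of these data known. Members were named by this rule: up to 6 per cluster with the highest maximum at or above 1 FPKM, all past the size rule in an Eed or Setd2 comparison, and the 5 C-type isoforms. The functions were tested on simulated data, with changes set only in genes of at least 5 FPKM in EB wild type. Of the members 2 reached 5 FPKM in any library, so the simulation did not cover the level of most. Pseudocounts, FPKM minimums, 3 rescalings, summed rows, another size rule and another control were tried as alternatives.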

Additional observations from a re-analysis of the deposited data

Results flagged for a closer look

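Pcdhga5 and Pcdhgb4 were flagged because their Eed comparisons in ES cells and in EBs differed in direction and by at least 1. Opposite directions were not particular to them: of the 21 Pcdhg members 14 were above 0 in ES cells and 18 below 0 in EBs. Pcdhga11, for example, had 0.26 in ES cells and -0.63 in EBs. For Pcdhgb4 the difference of log2(FPKM + 1) was 0.50 in ES cells and -1.07 in EBs, so the EB value minus the ES value was -1.57. For Pcdhga5 the values were 0.34 and -0.80, a gap of -1.14. Each rests on 1 library per group, and the difference was not tested. Both are Pcdhg isoforms whose reads from shared exons were divided by the authors' software.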

How the results depend on the processing

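No call of a member changed direction under any alternative that was run. Of the counts of members called, 110 of the values recomputed stayed within 1.5 times the reported count. The rest moved as follows. With a pseudocount of 0.1, the Eed comparison in ES cells had 1 member higher (Pcdhgb4), that in EBs 8 lower, wild-type differentiation 1 lower (Pcdhga12), and differentiation of the cells labelled Eed KO 25 higher and 3 lower. With a pseudocount of 0.5, 4 were lower in the Eed comparison in EBs. With a looser size rule, a factor of 1.5, 9 were lower there and 2 were lower in differentiation of the cells labelled Eed KO. With an FPKM minimum of 5, 2 members passed, so the Eed comparison in EBs had 0 higher and 0 lower, both differentiation comparisons had 2 higher, the one labelled Eed KO had 0 lower, and with 0 members passing between the control lines 0 were lower. That minimum removes members by its construction. In the rescalings, under which the median of all features was at most 0.26, every count stayed within 1.5 times. No paired analysis was possible because each group has 1 library. In the ES-cell libraries single Pcdhb genes rest on few fragments, at most about 20.5.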

Other observations

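Of the 61 transcripts that carry the shared locus, 4 were not members by the symbol rule. That rule would miss a protocadherin transcript that matched no symbol. NM_033580, which matched no symbol, had 0.527 FPKM in ES wild type, 0.709 in the ES library labelled Eed KO, 1.04 in EB wild type, 0.215 in the EB library labelled Eed KO, 0.415 in shCtrl and 0.489 in shSetd2. Gm37013, a fused transcript of the Pcdha and Pcdhg clusters, had 0, 0.0151, 0.273, 0.517, 0 and 0.0166 FPKM. Taf7, a subunit of the general transcription factor TFIID, lies between the clusters and had 39.1, 48.7, 14.2, 11.3, 31.6 and 31.2 FPKM, so it was lower in both EB libraries than in all ES-cell libraries. Slc25a2, a mitochondrial carrier gene of the same locus, had 0.155, 0.244, 0.491, 0.331, 0.0876 and 0.146 FPKM.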
